A study of Rattus norvegicus with 21 samples.

Results

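The data described here are the 6 arrays of a rat insulin-secreting cell clone transfected with cathepsin H, 3 taken after 6 h and 3 after 16 h of 2 inflammatory cytokines, out of 21 arrays in the series. They were chosen by their titles, and the comparison of 16 h with 6 h was run over all 31042 probe sets other than array controls. INS1 is an insulin-secreting line derived from a rat islet tumour and stands in for the beta cell in culture. The clone, called pCTSH1 here and pCTSH#1 by the submitters, carried a stably transfected CTSH plasmid, and a second line, pcDNA, carried the empty vector. Both lines were exposed to IL-1β at 150 pg/ml with IFNγ at 5 ng/ml for 0, 6 or 16 h, with 3 arrays at each time, and 3 further arrays held untransfected, unexposed INS1 cells. A single clone was profiled, so a feature of the clone and an effect of cathepsin H cannot be told apart. No unexposed arrays were taken at 6 or 16 h, so time in culture and time in cytokine cannot be told apart either. The labels do not say that replicates were separate cultures, and p-values measure only the spread between these arrays.

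IL-1β acts through its receptor on NF-κB and MAP kinase signalling, and IFNγ acts through JAK kinases on the interferon regulatory factors. In beta cells the pair induces chemokines, nitric oxide synthase and antigen presentation, and it disturbs endoplasmic reticulum calcium, which activates the unfolded protein response. One arm of that response runs from the kinase PERK through translation of ATF4 to the factor CHOP, encoded by Ddit3, and to the pro-apoptotic pseudokinase TRIB3. Cathepsin H is a lysosomal aminopeptidase that lies in a type 1 diabetes risk region, and the series concerns its link with the small GTPase Rac2 and cytokine-induced death.

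Levels are log2 RMA values, so a difference of 1 is a fold of 2. The brightest nonspecific control of each array served as its background, between 4.04 and 4.17 in these 6 arrays, and a gene is called at background where at least 2 of 3 arrays did not exceed it. Between 61.4% and 65.5% of probe sets stood above it. Arrays of the same time differed from each other with an SD over probe sets of 0.195 to 0.213 at 6 h and 0.239 to 0.311 at 16 h. All 7 measured beta-cell markers were above background at both times, with a summed log2 level of 15.59 to 15.62 at 6 h and 15.38 to 15.43 at 16 h. Of 13 measured macrophage and leukocyte markers, 4 were above background, with a summed log2 level of 7.78 to 8.02 at 6 h and 8.01 to 8.07 at 16 h, and Ptprc, the pan-leukocyte marker, was at background at both times. Markers of fibroblast, endothelial, exocrine and other islet cells had from 2 to 5 genes above background in each list, and the steepest change among them was in the endothelial marker Plvap, from 4.32 to 6.58. The probe set for Ctsh itself was at 4.12, 3.87 and 4.21 at 6 h and at 5.08, 4.15 and 4.11 at 16 h, at or near background. Its level differed from the vector line by 0.40 at 6 h (limma adjusted p = 0.458) and 0.66 at 16 h (adjusted p = 0.08), so this probe set does not check the label of the clone. Its change from 6 to 16 h, 0.38 (adjusted p = 0.146), passed as 0.55 when the third 16 h array was left out. The labels do not give the species or extent of the insert.

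Between 6 and 16 h the clone's expression changed broadly. Of 31042 probe sets, 12815 (41.3%) passed an adjusted p of 0.05 in limma's moderated test, 6027 (19.4%) higher at 16 h and 6788 (21.9%) lower. With 1 probe set for each of 13438 named genes, 6613 (49.2%) passed, 3224 (24.0%) upward and 3389 (25.2%) downward, and the median change over all genes was 0.005. These shares are the background against which each group below is to be read. A fold above 2 was reached by 845 genes that rose and 807 that fell, a fold above 4 by 147 and 105, and a fold above 8 by 24 and 14. The share of calls that were rises was 47.0% on the deposited values and 57.9% when every array was centred on its own median, which moved the median over all probe sets from 0.0054 to 0.10. In bulk RNA, fewer cells of a kind and less RNA per cell cannot be told apart.

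**Figure D1:**
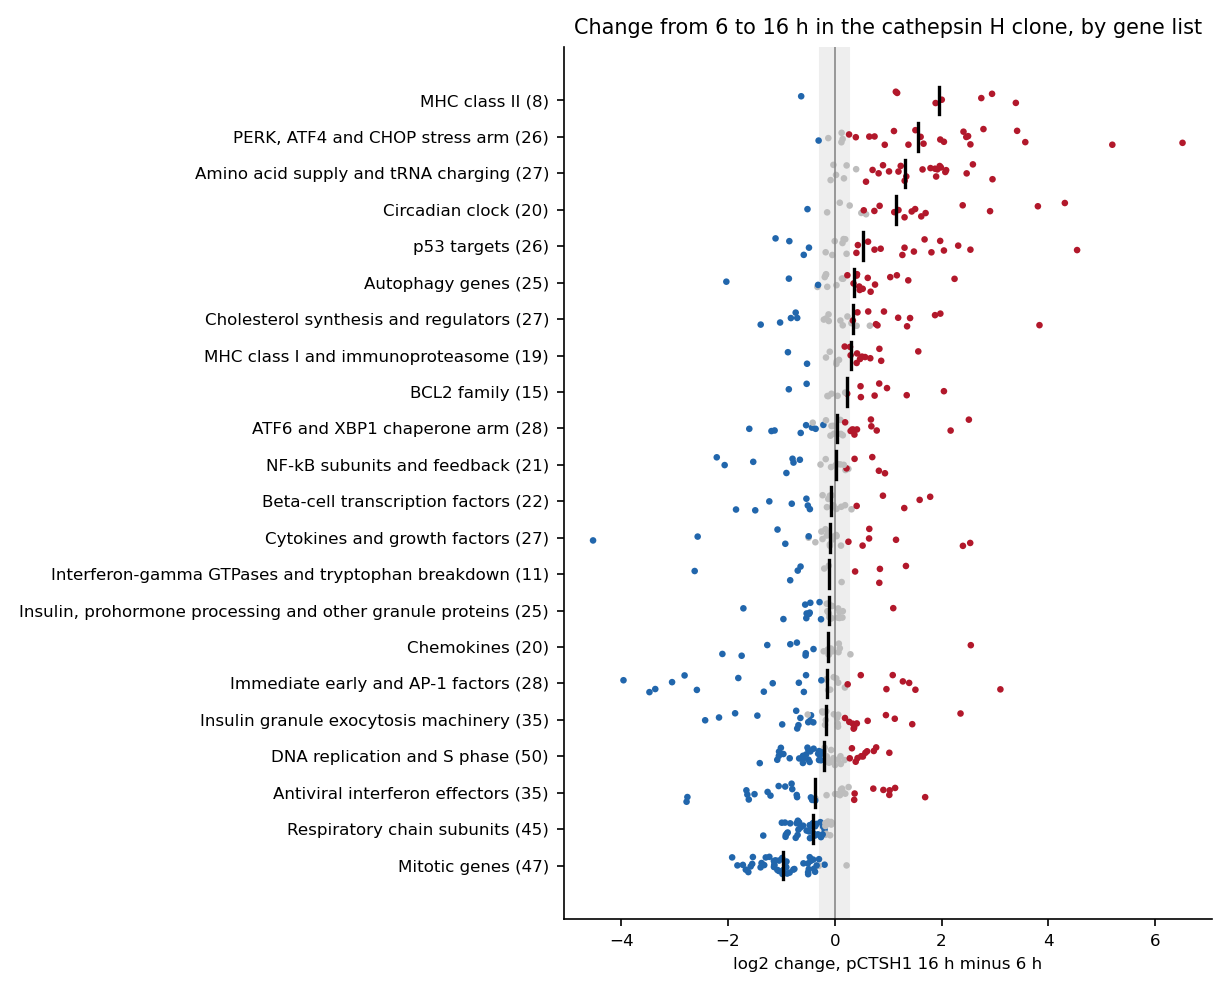
Each point is 1 gene of the list named on the left (number measured in brackets), placed by its log2 change in the pCTSH1 clone from 6 to 16 h on the horizontal axis. Red points rose, blue points fell and grey points did not pass the adjusted threshold, black bars are list medians, and the grey band with its line gives the quartiles and the median over all 13438 genes. The MHC class II list has its median at 1.95, the PERK, ATF4 and CHOP list at 1.56 and the mitotic list at -0.97.

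The PERK, ATF4 and CHOP arm held the 2 largest fitted rises among all genes above background at both times. Of its 26 measured genes, 21 rose, 1 fell and 4 did not pass, with a median of 1.56. Trib3, the pseudokinase that binds AKT, went from 5.10, 4.86 and 4.66 in the 6 h arrays to 11.43, 11.26 and 11.48 at 16 h. Chac1, which degrades glutathione, went from 5.48, 5.40 and 5.72 to 10.72, 10.67 and 10.82. No 6 h array of either gene came near a 16 h array. The rise was 91.4-fold for Trib3 (log2 6.51, SE 0.19, adjusted p = 4.1e-15) and 36.8-fold for Chac1 (log2 5.20, SE 0.13, adjusted p = 4.13e-16). In unexposed cells of the clone Trib3 had stood at 4.84 and Chac1 at 5.45, which their 6 h means exceeded by only 0.03 and 0.09.

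Short stretches upstream of these genes are shown because the arm is known to act through a common DNA element. The letters TGATGNAA, the core of the element bound by ATF4 with its C/EBP partners, were searched on both strands in the 250 bases before the annotated start of each gene, in RefSeq sequence of build GRCr8. Of 11089 measured genes with such a sequence, 2.08% held the word. It lay upstream of 5 of the 20 stress arm genes with a sequence (25%) and 7 of the 23 amino acid and tRNA genes (30.4%). All 12 of these genes rose, and the lists were themselves assembled largely from genes known as ATF4 targets. Such shares were not confined to these 2 lists, though in most others the word was rarer. It lay before 4 of 11 BCL2 family genes (36.4%) and 2 of 8 exocrine and ductal markers (25%). The windows of Trib3, Chac1, Nupr1 and Iars1, a tRNA ligase, follow, with the match in capitals; in all 4 the word reads on the opposite strand.
Trib3, chr3:161275534-161275783, minus strand: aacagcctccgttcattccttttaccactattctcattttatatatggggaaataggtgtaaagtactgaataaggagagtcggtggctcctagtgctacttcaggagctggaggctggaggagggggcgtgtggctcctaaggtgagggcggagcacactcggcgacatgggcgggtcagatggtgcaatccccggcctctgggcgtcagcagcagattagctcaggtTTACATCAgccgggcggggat
Chac1, chr3:126795881-126796130, plus strand: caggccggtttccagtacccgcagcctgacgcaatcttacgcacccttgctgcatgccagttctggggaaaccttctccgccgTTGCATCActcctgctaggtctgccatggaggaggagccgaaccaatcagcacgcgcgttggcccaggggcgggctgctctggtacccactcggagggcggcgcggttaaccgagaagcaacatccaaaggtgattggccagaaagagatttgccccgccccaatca
Nupr1, chr1:190645902-190646151, minus strand: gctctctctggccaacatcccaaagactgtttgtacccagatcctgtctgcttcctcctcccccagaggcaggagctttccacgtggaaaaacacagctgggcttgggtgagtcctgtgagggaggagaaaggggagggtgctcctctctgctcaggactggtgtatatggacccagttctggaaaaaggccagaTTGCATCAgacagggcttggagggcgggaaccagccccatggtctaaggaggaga
Iars1, chr17:15193653-15193902, minus strand: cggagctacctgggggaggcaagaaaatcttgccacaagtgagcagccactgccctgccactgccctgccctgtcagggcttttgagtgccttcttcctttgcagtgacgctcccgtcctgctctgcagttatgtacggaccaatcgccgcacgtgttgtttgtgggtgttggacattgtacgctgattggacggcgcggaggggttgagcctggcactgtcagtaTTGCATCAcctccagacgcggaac
The match begins 21 bases before the start in Trib3, 167 in Chac1, 55 in Nupr1 and 24 in Iars1. The windows of Ddit3, Atf4, Asns and Sars1, which also rose, did not hold the word, which says only that these letters are not in that stretch. Over all 231 genes that held it, 66 rose (28.6%) and 37 fell (16.0%), beside 24.4% and 25.9% of the 10858 genes that did not.

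The factors of the arm rose with it. Atf4 was at 10.47, 10.50 and 10.50 at 6 h and at 12.45, 12.47 and 12.48 at 16 h, a 3.93-fold rise (SE 0.09 on the log2 scale, adjusted p = 1.41e-12). Ddit3, which encodes the pro-apoptotic factor CHOP, went from 8.73, 8.63 and 8.40 to 12.17, 12.22 and 12.09, an 11.9-fold rise (adjusted p = 1.41e-15). Atf3, a repressor downstream of ATF4, was already 4.55 log2 units above unexposed cells at 6 h and rose by a further 1.51 to 10.99. Atf4 itself had stood at 10.27 in unexposed cells and 10.49 at 6 h.

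Downstream genes moved in the same direction. Ddit4, an inhibitor of mTORC1, rose 10.7-fold from a mean of 6.41 to 9.82, after standing at 7.37 in unexposed cells. Sesn2, another stress-induced inhibitor of mTORC1, rose 5.82-fold from 6.94 to 9.48, having been 1.56 log2 units lower at 6 h than unexposed. Herpud1, which takes part in endoplasmic reticulum-associated degradation, rose 6.89-fold, Nupr1, a stress-induced chromatin protein, 5.52-fold, and Bbc3, the BH3-only killer PUMA, 4.12-fold. Ppp1r15a, the phosphatase subunit GADD34 that reverses PERK's action, rose 2.60-fold to 9.94 ± 0.04 (SD, n = 3). Eif2ak3, which encodes PERK, rose 2.16-fold and Cebpb, the C/EBPβ factor, 3.17-fold. Eif2ak4, which encodes the amino acid sensor GCN2, was the only member that fell, by 0.30 (adjusted p = 0.039). That call was lost when arrays were centred on their medians and when any array but replicate 3 at 16 h was left out, with values from -0.33 to -0.19.

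**Figure D2:**
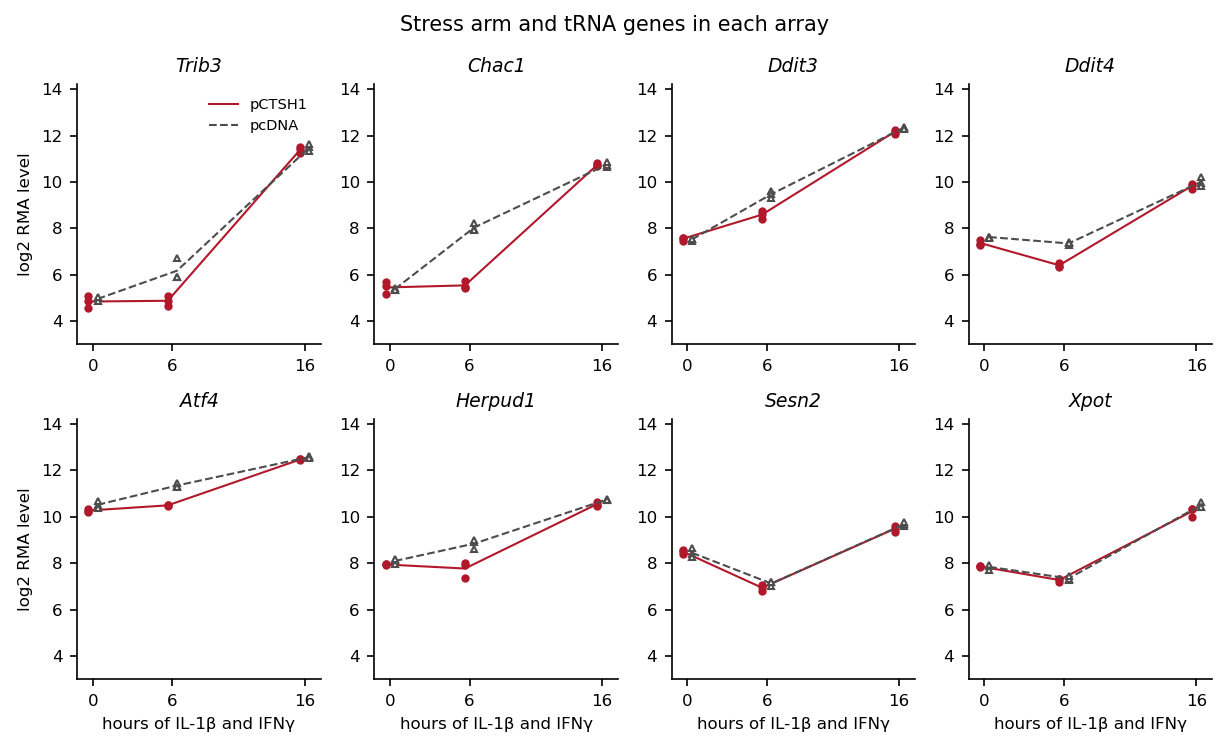
Log2 RMA level of 8 stress genes in every array of the pCTSH1 clone (filled circles, solid line through the means of 3 arrays) and of the pcDNA vector line (open triangles, dashed line) at 0, 6 and 16 h of cytokine. Trib3 in the clone stays at 4.88 at 6 h and reaches 11.39 at 16 h, and Chac1 stands at 5.54 in the clone and 8.03 in the vector line at 6 h, while both lines are at 10.74 at 16 h.

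Genes of amino acid supply and tRNA charging rose almost as a group: 21 of 27 rose, none fell and 6 did not pass, with a median of 1.31. Xpot, which exports tRNA from the nucleus, went from 7.20, 7.30 and 7.32 to 9.98, 10.35 and 10.35, a 7.75-fold rise (SE 0.10, adjusted p = 2.29e-14). The 2 sets of arrays lay far apart. The transporter pair of large neutral amino acids rose together, Slc7a5 by 6.01-fold and Slc3a2 by 5.32-fold. Psat1, an enzyme of serine synthesis, rose 5.54-fold, while Phgdh, which catalyses the first step of that pathway, was at background at both times. Of the tRNA ligases, Iars1 rose 4.25-fold and Sars1 4.20-fold. Asns, the asparagine synthetase, began high at 10.88 and rose 2.29-fold to 12.07. The cystine transporter Slc7a11 rose from 4.69 to 6.59.

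The chaperone arm driven by ATF6 and XBP1 moved in both directions, with 11 of 28 genes higher, 8 lower and 9 not passing. Sel1l, the scaffold of the HRD1 ubiquitin ligase, went from 7.75, 7.69 and 7.77 to 10.29, 10.27 and 10.18, a 5.70-fold rise. Dnajb9, a cochaperone induced by XBP1, rose 4.50-fold from 8.78 to 10.95. Edem1, which hands misfolded glycoproteins to degradation, instead fell 3.04-fold from 11.45 to 9.85, although 1 of its 4 probe sets rose. Edem2, its relative, fell by 1.13, and Dnajc10, a disulphide reductase, fell by 1.19. Hspa5, the abundant chaperone BiP, was at 12.46 at 6 h and 12.79 at 16 h (adjusted p = 0.0477), a call lost when any 1 of the 6 arrays was left out, with changes of 0.26 to 0.36. Hsp90b1, which encodes GRP94, changed by -0.06 and did not pass. Xbp1 rose 1.33-fold to 11.64 ± 0.06 (SD, n = 3). Its spliced and unspliced forms were not told apart here.

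Growth arrest and p53 targets rose in part, 15 of 26 higher and 4 lower, with a median of 0.53. Tp53inp1, a p53-induced stress protein, was at 3.98, 4.0 and 4.50 at 6 h and at 8.58, 9.06 and 8.45 at 16 h. It lay at background at 6 h, so its rise was at least 22.6-fold, taking the background of each array as the lower level (adjusted p = 6.94e-13). Gadd45a, a DNA damage and arrest protein, rose 4.96-fold to 12.17, and Mdm2, the ubiquitin ligase of p53, rose 2.47-fold. Cdkn1a, which encodes the cell cycle inhibitor p21, was at 8.85 at 6 h and 9.02 at 16 h and did not pass (adjusted p = 0.196), although its other probe set rose, with 7.13 in unexposed cells. Sesn1, a p53-induced antioxidant protein, rose 3.51-fold, having been 1.32 log2 units below unexposed cells at 6 h.

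Among the BCL2 family, 8 of 15 genes rose, 2 fell and 5 did not pass. Both killers and guardians were among those that rose. Hrk, a BH3-only killer, rose 2.54-fold from 4.81 to 6.16, and Bcl2l1, which encodes the protective BCL-XL, rose 1.68-fold from 6.62 to 7.37. Mcl1, another protective member, was at 11.03 and 11.23 and did not pass (adjusted p = 0.0528). It passed as a rise of 0.29 with centred arrays, and as a rise under several other settings. Bad, a BH3-only killer, fell 1.82-fold. Of 22 death receptor and caspase genes, 8 rose and 5 fell. Casp4, the inflammatory caspase that senses cytosolic lipopolysaccharide, rose 4.72-fold to 9.02, and Cflar, the caspase-8 inhibitor FLIP, rose 3.60-fold, although its other probe set fell. Apaf1, the scaffold of the apoptosome, fell 1.80-fold and Casp6, an effector caspase, 2.26-fold.

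Many genes of the first wave of the cytokine response were lower by 16 h. Among 28 immediate early and AP-1 genes, 13 fell, 8 rose and 7 did not pass. Tnf, the cytokine itself induced by NF-κB, stood at 9.09, 9.05 and 9.84 at 6 h and at 4.72, 4.82 and 4.84 at 16 h. Its fall of 23.1-fold (log2 -4.53, SE 0.18, adjusted p = 2.52e-13) was the largest among genes above background at both times, and it left Tnf 1.25 log2 units above unexposed cells. Egr1, a zinc-finger factor of the immediate early class, went from 11.67, 11.71 and 12.03 to 7.63, 7.88 and 8.01, a 15.6-fold fall, close to its unexposed level of 7.47. Dusp6, the phosphatase that switches off ERK, fell 11.1-fold and ended at -1.29 log2 units relative to unexposed cells, and Dusp5 fell 7.04-fold. Ier3 fell 6.00-fold, and Zfp36, which destabilises Tnf mRNA, from 8.83 to 7.02. Egr2 and the haematopoietic growth factor Csf2 reached background at 16 h, with falls of at least 7.75-fold and 5.49-fold.

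A few genes of the same class went the other way. Myc, the growth-promoting factor, rose 8.59-fold from 8.0, 7.81 and 7.99 to 11.09, 11.01 and 11.01, and its 6 h mean was 0.18 above unexposed cells. Jun rose 2.42-fold to 10.65, on top of 4.55 log2 units already gained at 6 h. Fosl2, its AP-1 partner, rose 2.63-fold.

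Of 20 chemokines, 8 fell, 1 rose and 11 did not pass, and 6 of the 20 were at background at both times. The abundant ones stayed far above unexposed cells. Cxcl10, which draws T cells, fell 1.46-fold from 13.66 to 13.12 against 8.29 in unexposed cells. The neutrophil chemokine Cxcl1 fell 1.78-fold from 12.97 to 12.14 against 4.10. Cxcl9 was at 11.91 and 11.98 and did not pass. Ccl2, which draws monocytes, fell to background by at least 3.96-fold, and Cxcl12 fell 3.35-fold. Ccl5, which draws T cells and monocytes, was the single riser, from 5.32, 4.66 and 5.66 to 7.56, 7.92 and 7.81 (5.85-fold, adjusted p = 1.01e-08). Of 27 cytokines and growth factors, Tnf among them, 7 rose, 5 fell and 15 did not pass. Over all genes 24.0% rose and 25.2% fell, and 12 of the 27 were at background at both times. Gdf15, a stress hormone, rose 5.80-fold and Hbegf, an EGF receptor ligand, 5.28-fold. Hbegf had stood 1.97 log2 units below unexposed cells at 6 h. Csf1, the macrophage growth factor, rose 2.21-fold, by 1 of its 4 probe sets.

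Inhibitors of these pathways moved both ways, and of the 21 measured feedback inhibitors 9 rose and 6 fell. Socs1, which blocks JAK kinases, went from 7.64, 7.85 and 7.65 to 4.91, 4.99 and 4.83, a 6.97-fold fall (adjusted p = 2.12e-12), whereas Socs3 was near background, at 4.29 and 4.12, and did not pass. Socs7 rose 3.26-fold, by 1 of its 2 probe sets, and Spry4, an inhibitor of receptor tyrosine kinase signalling, fell 4.14-fold. Nfkbiz, a nuclear IκB protein needed for secondary NF-κB targets, fell 4.63-fold by 1 of its 2 probe sets, and Bcl3, another, 4.18-fold. Zc3h12a, an RNase that degrades inflammatory mRNA, fell 2.88-fold. Nfkbia, the inhibitor IκBα, fell 1.57-fold from 12.15 to 11.50, with 8.98 in unexposed cells. The subunits Rela and Nfkb1 changed by 0.05 and 0.11 and did not pass. In the NF-κB list as a whole 5 of 21 genes rose and 7 fell, beside 24.0% and 25.2% of all genes.

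**Figure D3:**
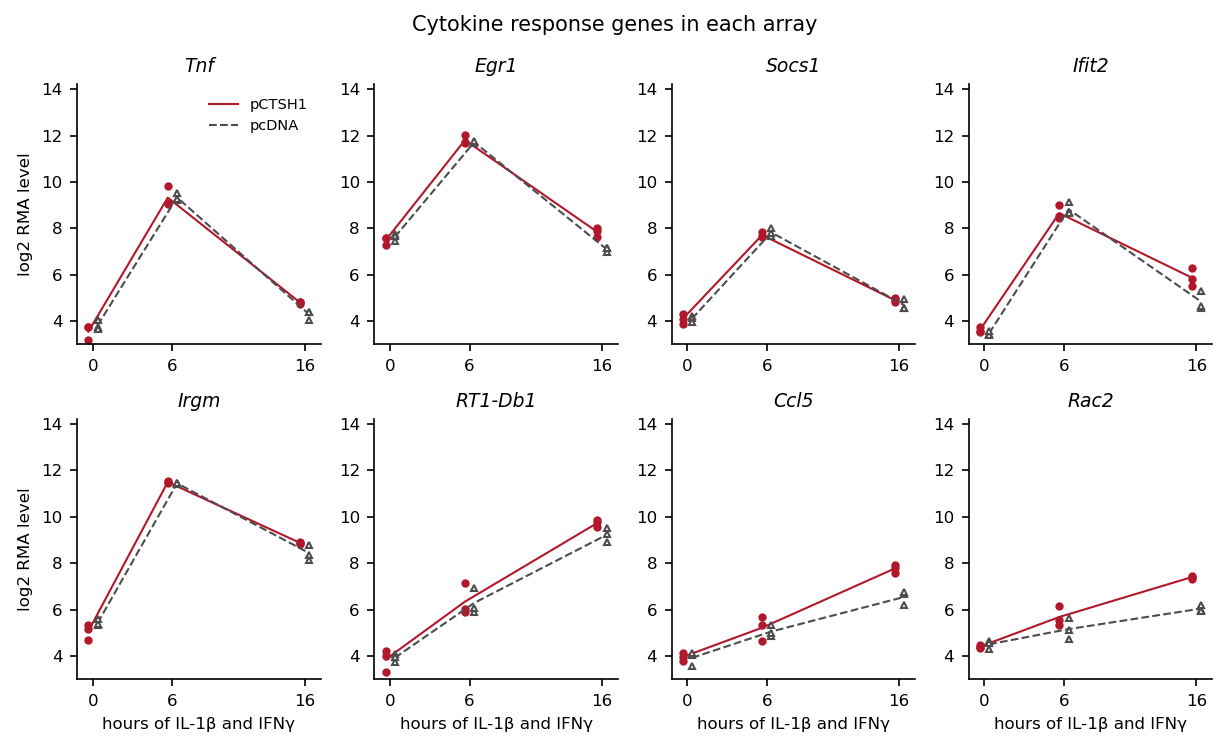
Log2 RMA level of 8 cytokine response genes in every array of the pCTSH1 clone (filled circles, solid line through the means) and the pcDNA vector line (open triangles, dashed line) at 0, 6 and 16 h. In the clone Tnf falls from 9.32 to 4.79 and Irgm from 11.49 to 8.87 between 6 and 16 h, while RT1-Db1 climbs from 6.34 to 9.73 and Ccl5 from 5.22 to 7.76. Rac2 reaches 7.40 in the clone and 6.04 in the vector line at 16 h.

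Interferon-induced genes divided. Of 35 antiviral effectors, 17 fell, 8 rose and 10 did not pass, with a median of -0.36. Ifit2, which binds viral RNA, went from 8.42, 8.55 and 8.99 to 5.51, 5.82 and 6.30, a 6.86-fold fall, and its relative Ifit3 fell 6.78-fold. Parp14, a mono-ADP-ribosyltransferase, fell 3.06-fold from 11.22 to 9.61. Zbp1, a sensor of Z-form nucleic acid that can trigger necroptosis, rose 3.23-fold from 5.98 to 7.68. Rsad2, which encodes viperin, was at 11.33, 11.30 and 11.39 at 6 h and at 12.36, 12.34 and 12.38 at 16 h, a 2.03-fold rise. Bst2, which tethers budding virions, rose 2.19-fold to 11.00. Mx1, a dynamin-like GTPase that blocks virus replication, rose 1.65-fold. All of these still stood above unexposed cells at 16 h, in which Ifit2 was at 3.61 and Rsad2 at 4.60. Irf9, an interferon regulatory factor, rose 2.33-fold from 8.89 to 10.11.

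Genes that moved in opposite directions shared an upstream word. The letters GAAANNGAA, part of the interferon-stimulated response element, were found on either strand before 14 of the 25 antiviral genes with a sequence (56.0%), beside 6.26% of all 11089 genes. Ifit3, which fell, and Rsad2, which rose, are shown with the matches in capitals, on the opposite strand in both.
Ifit3, chr1:241527076-241527325, plus strand: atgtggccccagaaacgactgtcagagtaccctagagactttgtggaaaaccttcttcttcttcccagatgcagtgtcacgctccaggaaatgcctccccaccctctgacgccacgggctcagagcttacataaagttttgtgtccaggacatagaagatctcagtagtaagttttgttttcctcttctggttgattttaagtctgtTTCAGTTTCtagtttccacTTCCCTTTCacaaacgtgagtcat
Rsad2, chr6:48788121-48788370, minus strand: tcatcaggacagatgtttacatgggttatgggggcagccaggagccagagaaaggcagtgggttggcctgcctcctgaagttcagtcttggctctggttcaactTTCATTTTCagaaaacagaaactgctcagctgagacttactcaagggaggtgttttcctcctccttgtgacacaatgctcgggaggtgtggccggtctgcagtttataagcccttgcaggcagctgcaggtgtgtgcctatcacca
Ifit3 holds the word beginning 43 and 24 bases before its start, and Rsad2 once, 146 bases before. Among all 694 genes with the word, 23.6% rose and 25.6% fell, beside 24.6% and 25.6% of the rest.

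Of the 11 measured interferon-gamma GTPase and tryptophan genes, 4 rose and 4 fell, with a median of -0.11. Irgm, an immunity-related GTPase which acts on intracellular pathogens, went from 11.46, 11.49 and 11.53 to 8.86, 8.83 and 8.92, a 6.17-fold fall (adjusted p = 4.72e-11), with 5.06 in unexposed cells. Igtp, a relative, fell 1.62-fold from 12.66 to 11.96. The risers included Ido1, which degrades tryptophan, by 1.78-fold, and Ciita.

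Antigen presentation kept climbing. Ciita, the master coactivator of MHC class II genes, rose 2.52-fold from 5.94 to 7.27 (adjusted p = 4.55e-09), and 7 of the 8 measured class II genes rose, with a median of 1.95. RT1-Db1, a class II beta chain, was at 6.01, 5.88 and 7.13 at 6 h and at 9.55, 9.85 and 9.79 at 16 h, a 10.5-fold rise (SE 0.30, adjusted p = 1.32e-08). The 6 h arrays spread over more than 1 log2 unit, but none reached a 16 h array. RT1-Ba, a class II alpha chain, rose 7.71-fold and RT1-DMb, part of the peptide-loading DM complex, 6.70-fold. Cd74, the invariant chain, rose 3.70-fold to 12.03 from an unexposed level of 3.33. Ifi30, a lysosomal thiol reductase, was the member that fell, by 0.63. Of the 13 macrophage and leukocyte markers, 2 rose and 1 fell, and Ptprc was at background. Cd68, a lysosomal glycoprotein in that list, went from 4.80 to 5.89 (adjusted p = 7.57e-05), and its part in the class II values was not tested.

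Class I and immunoproteasome genes rose less steeply, 12 of 19 higher and 2 lower, with a median of 0.30. RT1-CE5, a classical class I heavy chain, rose 2.96-fold to 10.99, with paralogous class I genes that the probes may not separate. Psmb8, an immunoproteasome subunit, rose 1.58-fold to 12.10, and Tap1, the peptide transporter, changed by 0.03 and did not pass.

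Of 22 genes of nitric oxide, arginine and prostaglandin metabolism, 4 rose, 5 fell and 13 did not pass. Over all genes 24.0% rose and 25.2% fell, and 7 of the 22 were at background at both times. Nos2, the inducible nitric oxide synthase, was at 6.71, 6.46 and 6.78 at 6 h and at 4.87, 5.60 and 5.42 at 16 h, a 2.55-fold fall (SE 0.18, adjusted p = 2.91e-06), with 3.41 in unexposed cells. Ass1, which makes the arginine precursor argininosuccinate, went from 8.40, 8.39 and 8.67 to 10.79, 10.73 and 10.72, a 4.79-fold rise. Asl, the next enzyme, fell 1.79-fold, and Gch1, which makes the cofactor tetrahydrobiopterin, fell 1.33-fold. Ptger4, a prostaglandin E2 receptor, rose from background by at least 2.94-fold, and Hpgd, which inactivates prostaglandins, fell 2.78-fold.

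Rac2, the haematopoietic small GTPase named by the series, rose. It was at 5.56, 5.31 and 6.16 at 6 h and at 7.33, 7.42 and 7.44 at 16 h, a 3.29-fold rise (log2 1.72, SE 0.19, adjusted p = 2.52e-07), with 4.40 in unexposed cells. In the vector line Rac2 was at 4.73, 5.11 and 5.62 at 6 h and at 5.97, 6.20 and 5.95 at 16 h, a rise of 0.89. The clone's mean lay 0.52 above the vector line's at 6 h, which did not pass (adjusted p = 0.2), and 1.36 above at 16 h (adjusted p = 0.00023). The difference of the 2 rises, 0.83, did not pass over all probe sets (adjusted p = 0.24). Nox1, a catalytic subunit of NADPH oxidase, went from 6.76, 7.02 and 7.52 to 8.51, 8.82 and 8.61 in the clone. In the vector line its mean went from 5.88 to 6.23, and the clone's arrays already lay above both of these means at 6 h. The difference of the Nox1 changes was 1.20 (limma adjusted p = 0.051). Of the 22 genes in the list of Rac, NADPH oxidase and cathepsin H partners, 5 rose, 2 fell and 15 did not pass. Over all genes 24.0% rose and 25.2% fell, and 4 of the 22 were at background at both times. The count of rises does not set this list apart, and single members are described.

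Mitotic genes were lower at 16 h almost throughout. Of 47 measured, 45 fell, none rose and 2 did not pass, with a median of -0.97. Cdc20, which activates the anaphase-promoting complex, was at 9.78, 9.73 and 9.70 at 6 h and at 7.80, 7.72 and 7.93 at 16 h, a 3.79-fold fall (SE 0.08, adjusted p = 5.04e-13). Plk1, a mitotic kinase, fell 3.54-fold from 9.56 to 7.74, Aurka 3.30-fold and Ccnb1, cyclin B1, 3.07-fold. Within each time the Cdc20 arrays differed by far less than the gap between times. Cdk1, the kinase partner of cyclin B, fell 2.20-fold from 11.03 to 9.89. The 2 genes that did not pass were Kif18a, a mitotic kinesin (-0.30), and Ckap2, a spindle protein (0.22). Kif18a passed as -0.42 without the third 6 h array, and Ckap2 passed as a rise of 0.32 when arrays were centred on their medians and under several other settings.

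Upstream of the mitotic genes the word TTTGAA, the cell cycle homology region that the DREAM complex binds, lay before 21 of 41 genes with a sequence (51.2%), beside 10.9% of all genes, and CCAAT before 32 (78.0%), beside 35.1%. CCAAT was not particular to this list, though most lists held less. It lay before 18 of 21 ATF6 and XBP1 genes (85.7%) and 16 of 22 cholesterol genes (72.7%). Cdc20 and Cdca8, a subunit of the chromosomal passenger complex that fell 2.98-fold, are shown with TTTGAA in capitals.
Cdc20, chr5:137255800-137256049, minus strand: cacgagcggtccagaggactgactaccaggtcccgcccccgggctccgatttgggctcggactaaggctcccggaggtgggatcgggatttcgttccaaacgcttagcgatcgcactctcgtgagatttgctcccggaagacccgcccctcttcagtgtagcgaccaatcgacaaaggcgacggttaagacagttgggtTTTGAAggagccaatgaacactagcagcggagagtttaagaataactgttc
Cdca8, chr5:142483200-142483449, minus strand: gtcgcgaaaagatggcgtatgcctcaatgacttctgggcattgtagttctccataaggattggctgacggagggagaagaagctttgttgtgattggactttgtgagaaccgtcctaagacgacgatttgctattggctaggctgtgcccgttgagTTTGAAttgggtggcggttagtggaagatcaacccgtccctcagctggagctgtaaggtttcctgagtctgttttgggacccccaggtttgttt
The word begins 51 bases before the start in Cdc20 and 94 in Cdca8. Of the 21 mitotic genes with it, Ckap2 alone did not fall. Across all 1211 genes with the word, 20.5% rose and 24.4% fell, beside 25% and 25.8% of the rest.

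DNA replication genes were less uniform, with 24 of 50 lower and 11 higher, but 18 lower and 12 higher with centred arrays. Pole2, a subunit of DNA polymerase epsilon, fell 2.65-fold, Rrm2, the ribonucleotide reductase subunit, fell by 0.96 and the sliding clamp Pcna fell by 0.60. Tyms, thymidylate synthase, rose 2.03-fold. The helicase subunit Mcm2 changed by -0.08 and did not pass.

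**Figure D4:**
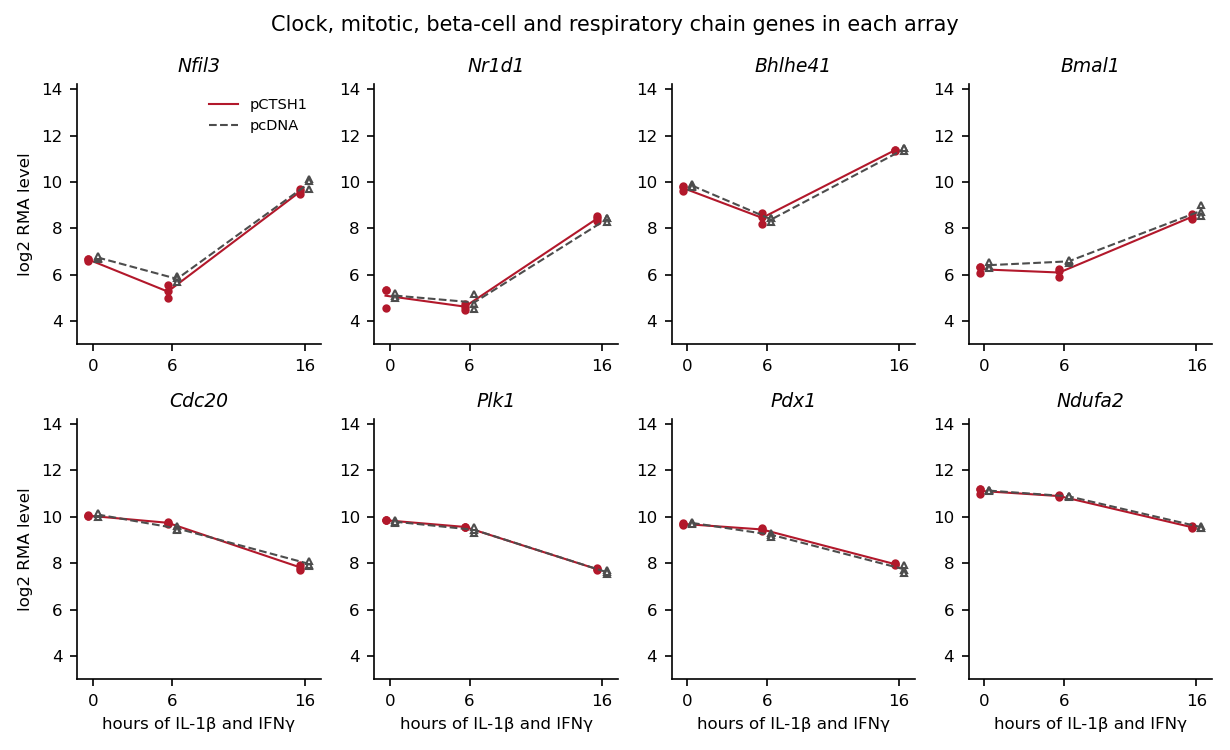
Log2 RMA level of 4 clock genes (upper row) and of 2 mitotic genes, Pdx1 and Ndufa2 (lower row) in every array of the pCTSH1 clone (filled circles, solid line through the means) and the pcDNA vector line (open triangles, dashed line) at 0, 6 and 16 h. Between 6 and 16 h the clone's Nfil3 climbs from 5.27 to 9.58 and Nr1d1 from 4.62 to 8.43, while Plk1 falls from 9.56 to 7.74 and Pdx1 from 9.45 to 7.96, and the lines of the vector cells lie close to those of the clone.

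Clock genes rose together: 14 of 20 rose, 1 fell and 5 did not pass, with a median of 1.15. Nfil3, a repressor of clock output genes, went from 5.29, 5.54 and 4.98 to 9.67, 9.60 and 9.47, a 19.8-fold rise (SE 0.12, adjusted p = 1.9e-15), and passed well above its unexposed level of 6.65. Nr1d1, the nuclear receptor REV-ERBα, went from 4.62, 4.75 and 4.49 to 8.42, 8.33 and 8.53, a rise of 3.80 on the log2 scale. For both genes the 6 h and 16 h arrays lay far apart. Bhlhe41, the repressor DEC2, rose 7.51-fold from 8.45 to 11.36 and Bmal1, the partner of CLOCK, 5.26-fold. Per1 rose 2.47-fold, Per2 2.16-fold, Cry2 3.25-fold and Dbp, an output factor, 2.71-fold. Activators and repressors of the loop were both among the genes that rose. Csnk1d, a kinase of the PER proteins, fell by 0.51, but its probe sets disagreed, and their mean gave 0.18. With no unexposed arrays at these hours, a clock phase set at plating or medium change and time in cytokine cannot be told apart.

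Single genes of beta-cell identity moved both ways while insulin mRNA held nearly level. Ins1 was at 13.69, 13.68 and 13.69 at 6 h and at 13.57, 13.49 and 13.58 at 16 h, a change of -0.14 that did not pass (adjusted p = 0.0777) but passed at the same size with a trended, robust variance. Ins2 changed by -0.12 (adjusted p = 0.299). Both lie near the top of the scale of these arrays, where large differences can be compressed. Of 22 beta-cell transcription factors, 7 fell and 5 rose, beside 25.2% and 24.0% of all genes. The count does not set this list apart, and single members are described. Pdx1, the activator of the insulin gene, went from 9.49, 9.49 and 9.37 to 7.99, 7.97 and 7.92, a 2.81-fold fall (adjusted p = 1.22e-11), and Isl1, a LIM homeodomain factor, fell 3.61-fold to 5.57 by 1 of its 2 probe sets, from 9.26 in unexposed cells. Nkx6-1 fell by 0.81 and Neurod1 by 0.53. Foxa2, a forkhead factor, rose 3.01-fold from 9.09 to 10.68, close to the 10.52 of unexposed cells, and Myt1, a zinc-finger factor, rose 3.45-fold.

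Of 25 hormone and granule genes, 10 fell, 1 rose and 14 did not pass. Gcg, which encodes glucagon, also fell, and Iapp, the amyloid peptide secreted with insulin, fell 1.40-fold. In the exocytosis machinery 13 of 35 genes fell and 11 rose. Rab27a, the GTPase that docks insulin granules, went from 7.42, 7.50 and 7.51 to 4.78, 5.35 and 5.01, a 5.38-fold fall, and its effector Sytl4, granuphilin, fell 4.50-fold. Cplx2, a clamp of the fusion machinery, fell 3.65-fold. A pair of calcium sensors of fusion rose, Syt9 by 5.12-fold and Syt7 by 2.73-fold. Of 33 genes of glucose sensing, receptors and channels, 10 rose, 8 fell and 15 did not pass, beside 24.0% and 25.2% of all genes. With centred arrays 13 rose and 4 fell. The first count does not set this list apart, and single members are described. Adra2a, the adrenergic receptor that inhibits insulin release, fell 8.07-fold from 8.53 to 5.52, although only 1 of its 2 probe sets fell. Gipr, the receptor for the incretin GIP, fell 1.78-fold, and the potassium channel Kcnh2 rose 4.29-fold. Slc2a1, the ubiquitous glucose transporter, rose 9.47-fold from 6.11 to 9.36 after falling 1.62 log2 units below unexposed cells at 6 h, while Slc2a2, the beta-cell transporter, changed by -0.15 and did not pass.

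Mitochondrial genes fell by small amounts in large numbers. Of 45 respiratory chain subunits, 34 fell, none rose and 11 did not pass, with a median of -0.41. Ndufa2, a complex I subunit, went from 10.91, 10.92 and 10.85 to 9.54, 9.52 and 9.60, a 2.53-fold fall (SE 0.07, adjusted p = 9.35e-12). Cyc1, cytochrome c1, fell by 0.73. Under centring on array medians 29 still fell and none rose. Of 69 mitochondrial ribosomal genes, 34 fell and 13 rose, but 29 and 16 with centred arrays. Of 39 genes of pyruvate entry and the citric acid cycle, 16 fell and 5 rose, but 13 and 7 with centred arrays. Mpc2, a subunit of the mitochondrial pyruvate carrier, fell 2.38-fold and Pdhb, of pyruvate dehydrogenase, fell 2.09-fold. Of 26 glycolysis genes, 12 fell and 3 rose, with Pkm, pyruvate kinase, down 1.76-fold. Of 37 cytosolic ribosomal protein genes 6 rose and 1 fell, but 19 passed as rises after median centring and 23 after cyclic loess.

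Lipid genes split by pathway between 6 and 16 h. Of 23 fatty acid genes, 11 fell and 3 rose: Fads2, a desaturase, fell 3.03-fold and Fasn, fatty acid synthase, 2.40-fold. Of 27 cholesterol genes, 12 rose and 5 fell. Against unexposed cells, however, 17 of the 27 were lower and 2 higher at 6 h, and 12 lower and 6 higher at 16 h. The fatty acid list had 15 genes lower and 2 higher than unexposed cells at 16 h. Abca1, which exports cholesterol, was at 7.70, 7.54 and 7.95 at 6 h and at 11.53, 11.57 and 11.60 at 16 h, a 14.3-fold rise seen in all 4 of its probe sets. Fdft1, squalene synthase, rose 3.94-fold and Insig1, which retains the SREBP complex, 3.67-fold, and both had stood below their unexposed levels of 8.53 and 10.35 at 6 h.

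Other genes with the widest changes fell outside these lists. Prkaa1, a catalytic subunit of AMP-activated kinase, rose 12.2-fold from 5.22 to 8.83 by 1 of its 2 probe sets. Uap1l1 rose 13.3-fold, Fhdc1, a formin, by 3.81 on the log2 scale, Dedd2, a death effector domain protein, 9.57-fold, and the forkhead factor Foxk1 9.35-fold. Irf2bp2, a corepressor, rose 9.05-fold to 11.15. From background at 6 h, the potassium channel Kcnq3 rose by at least 18.1-fold, the factor Dmrta1 by at least 14.3-fold, Phlda2 by at least 5.71-fold and the homeobox gene Barhl1 by at least 5.11-fold.

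Among those that fell, Ppp1r10, a targeting subunit of protein phosphatase 1, went down 15.8-fold by 1 of its 2 probe sets. Klf2, a zinc-finger factor, fell 10.3-fold, the histone gene Hist2h2be 10.6-fold, Tmem50b 9.62-fold and Runx1 9.14-fold. Runx1 had stood 2.31 log2 units above unexposed cells at 6 h. B4galt5, a galactosyltransferase, fell 8.51-fold by 1 of 2 probe sets, Lpcat1, which remodels phosphatidylcholine, 8.37-fold, Rd3 7.88-fold, Tor4a 7.73-fold and Maob, monoamine oxidase B, 7.15-fold. To background at 16 h, Lrrc4c fell by at least 7.06-fold and Edn1, endothelin, by at least 4.16-fold.

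Most of these changes were seen in the vector line too, which shares no array with the clone. In pcDNA cells 13115 probe sets (42.2%) and 6709 genes (49.9%) passed between 6 and 16 h. Of the clone's 6613 called genes, 5682 (85.9%) were called in the same direction in pcDNA cells, which is 84.7% of the calls there, and 9 were called in opposite directions. Across 13438 genes, which are not independent, the changes of the 2 lines had a Pearson correlation of 0.941. The difference of the changes itself passed for 83 probe sets (0.267%), and for 50 genes (0.372%), of which 24 (0.179%) changed more positively in the clone and 26 (0.193%) more negatively. The count of probe sets was 41 without the clone's first 6 h array, 48 without its second, 49 and 45 without the second and the third 6 h array of the vector line, and 130 without the third 16 h array of that line.

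Of the 44 lists, the stress arm held the most genes whose change differed between the lines, 5 more positive in the clone and 1 less. At 6 h 10 of its 26 genes were lower in the clone than in the vector line and none was higher, against 1.56% of all genes lower and 2.43% higher. At 16 h 3 were lower and 1 higher, against 1.96% and 3.32% of all genes. Chac1 in the vector line was at 7.95, 7.93 and 8.23 at 6 h and at 10.66, 10.71 and 10.87 at 16 h. The clone's 6 h arrays lay 2.50 log2 units lower on average, and its 16 h arrays overlapped those of the vector line. Its change was the larger by 2.49 (adjusted p = 7.83e-07). Atf4 in the vector line stood at 11.33, 11.43 and 11.28 at 6 h, all above the clone's, and its change was 0.75 smaller there than in the clone (adjusted p = 0.012). The same order held for Ddit3, by 0.70 (adjusted p = 0.0278), and Ddit4, by 0.76 (adjusted p = 0.013). Outside the list it held for the immediate early gene Myc, by 0.71 (adjusted p = 0.0178). Cebpb differed by 0.65 (adjusted p = 0.0496), and the exception in the list was Vldlr, a lipoprotein receptor, whose change was 0.63 smaller in the clone (adjusted p = 0.0447). Trib3 differed by 1.20 and Herpud1 by 0.89, and neither difference passed (adjusted p = 0.0656 and 0.0562). The Ddit3 call was lost without any 1 of 7 of the 12 arrays (0.61 to 0.73), the Ddit4 call without the clone's first 6 h array (0.73), and the Myc call without the clone's second 6 h array or the vector line's first 16 h array (0.65 and 0.68). The Cebpb call did not survive the removal of any single array (0.60 to 0.70), and the Vldlr call was lost with centred arrays and without any 1 of 10 of the 12 arrays (-0.67 to -0.56). Among amino acid genes, the changes of Xpot and Psat1 differed by -0.21 (adjusted p = 0.69) and 0.06 (adjusted p = 0.951).

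At 16 h several inflammatory and interferon genes stood higher in the clone. Of 35 antiviral genes 6 were higher and 1 lower, and of 20 chemokines 4 were higher and none lower, beside 3.32% and 1.96% of all genes. Ifit2 was higher by 1.03 (adjusted p = 0.0046), Zbp1 by 1.01 (adjusted p = 0.016), Ccl5 by 1.23 (adjusted p = 0.0026) and Ciita by 0.70 (adjusted p = 0.00063). At 6 h none of these 4 had passed, with differences of -0.17, -0.11, 0.16 and -0.03. The differences between their changes did not pass either, at 1.20, 1.12, 1.06 and 0.73 (adjusted p = 0.0764, 0.197, 0.198 and 0.0515). Some genes fell further in the vector line, and there the difference of the changes passed. Cxcl2, a neutrophil chemokine, fell by 1.27 in the clone and fell by 2.25 in the vector line (adjusted p = 0.0326), a call lost without any 1 of 10 of the 12 arrays, at 0.94 to 1.02. Ccl20, which draws CCR6-bearing lymphocytes, changed by -0.13 in the clone and fell by 1.12 in the vector line, a difference of 1.00 (adjusted p = 0.0021). Oas1b, an oligoadenylate synthetase gene, fell by 1.05 in the clone and fell by 2.14 in the vector line (adjusted p = 0.00984).

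Apart from Chac1, the widest differences between the lines had other courses. Gna15, a G protein alpha subunit, was at 7.43, 7.38 and 7.17 at 6 h and at 5.38, 5.34 and 5.44 at 16 h in the clone, while the vector line's means were 4.09 and 3.96, at background at 16 h and close to it at 6 h. The clone's change minus the vector line's was -1.80 (adjusted p = 2.42e-05), from a start that was 3.23 higher, but a fall in the vector line had little room to be measured and the size of this difference is not exact. Ppargc1a, a coactivator of mitochondrial genes, was at background at both times in the clone and rose from 3.80 to 5.97 in the vector line. Cyria, a Rac-binding regulator, did the same, from 4.20 to 6.23, and for both genes the clone's values only bound its level. Elmod1, a GTPase-activating protein of ARF proteins, rose from 5.14, 5.17 and 5.45 to 7.09, 6.88 and 6.89 in the clone, and changed by 0.26 in the vector line (difference 1.44, adjusted p = 0.00717).

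**Figure D5:**
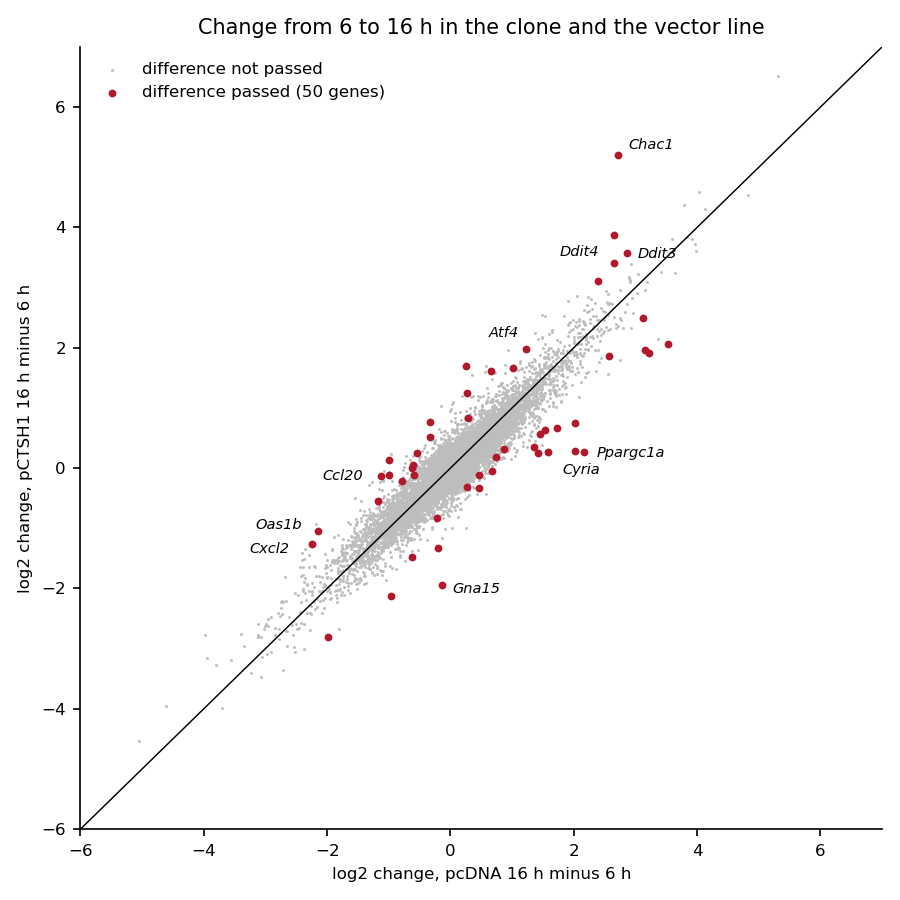
Each point is 1 of 13438 genes, with its log2 change from 6 to 16 h in the pcDNA vector line on the horizontal axis and in the pCTSH1 clone on the vertical axis; the diagonal marks equal change. Red points are the 50 genes whose difference of change passed, among them Chac1 above the diagonal at 2.71 and 5.20, and Gna15 below it at -0.14 and -1.94.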

How the data were processed

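The series holds 21 Affymetrix arrays of total RNA in 7 groups of 3, of which the 6 arrays of the clone at 6 and 16 h are compared here. The log2 values are RMA expression measures as deposited by the authors, and the submitters' processing notes name RMA, affy and limma; which arrays were normalized together is not given in the sources used here, and scanner files were not used here. Of 31137 probe sets, 95 array controls were left out. Platform annotation gave 1 gene symbol to 19063 probe sets, several to 572 and none to 11407; probe sets with several were not named. For 13438 genes the probe set with the highest mean was used, and 3985 genes had more than 1.

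The 7 group means were fitted to all 21 arrays with limma 3.58.1 in R 4.3.3, with empirical Bayes moderated tests, two-sided, Benjamini-Hochberg adjustment over 31042 probe sets and a threshold of 0.05. "Rose" and "fell" are used of calls past it. The script was tested on simulated data. Where the lower group lay at background, a fold is given as at least N against the higher of the background and the measured value. The number of arrays limits the precision. The 44 gene lists, the members and the upstream words were chosen with earlier results of these data known; 1073 of 1308 list symbols were matched, and other words were also scanned while the words shown were chosen. Genes named are list members, the 15 highest and 15 lowest changes above background, the 5 highest and 5 lowest bounds, and the 8 highest and 8 lowest differences between lines. Upstream sequences are RefSeq's for build GRCr8, found for 11089 of the 13438 genes. Alternatives tried were a replicate block, median centring, cyclic loess, the brighter 50% of probe sets, a trended and robust variance and weights per array. Others were leaving out each array, averaging the probe sets of a gene and fitting the compared arrays alone. Averaging was run only for the change within the clone.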

Additional observations from a re-analysis of the deposited data

Results flagged for a closer look

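For 24 named genes the change from 6 to 16 h differed between the clone and the vector line by the interaction term of the model (limma, adjusted over all probe sets). The differences are the clone's log2 change minus the vector line's. In 10 genes the clone's change was the lower. The difference was -1.90 for Ppargc1a, -1.80 for Gna15, -1.74 for Cyria and -1.48 for Lhfpl6. It was -1.32 for Spry2, an inhibitor of receptor tyrosine kinase signalling, -1.31 for the magnesium transport protein Cnnm2 and -1.28 for the iron exporter Slc40a1. It was -1.19 for the adenosine receptor Adora2b, -0.86 for Hpgd and -0.63 for Vldlr. Ppargc1a and Cyria were at background at both times in the clone, and Gna15 was at background at 16 h in the vector line, so the sizes given for these 3 are not exact. Lhfpl6 rose in both lines, from 5.87 to 7.92 in the clone and from 4.77 to 8.30 in the vector line. Spry2 was at 5.49 and 5.76 in the clone and rose from 5.98 to 7.57 in the vector line. Adora2b fell below unexposed cells at 6 h by 1.95 in the clone and then rose by 1.96, to within 0.02 of unexposed cells.

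In 14 genes the clone's change was the higher. The differences were 0.63 for Cxcl3, 0.65 for Cebpb, 0.70 for Ddit3, 0.71 for Myc, 0.75 for Atf4 and 0.76 for Ddit4. They were 0.99 for Cxcl2, 1.00 for Ccl20, 1.09 for the endopeptidase gene Phex, 1.09 for Oas1b and 1.14 for Depp1. They were 1.23 for Dmrta1, 1.44 for Elmod1 and 2.49 for Chac1. Depp1 was at 8.83 and 8.97 in the clone, where it did not pass, and fell from 8.94 to 7.94 in the vector line. Cxcl3 fell by 0.55 in the clone and fell by 1.18 in the vector line.

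Of these 24 calls, 10 passed in every setting run: Chac1, Atf4, Gna15, Ppargc1a, Cyria, Spry2, Elmod1, Depp1, Ccl20 and Cxcl3. Leaving out 1 array ended the call of Cebpb for any of the 12 arrays, of Cxcl2 and Vldlr for 10, of Phex for 9, of Adora2b and Hpgd for 8, of Slc40a1 and Ddit3 for 7, of Lhfpl6 for 6, of Dmrta1 and Myc for 2 and of Ddit4 for 1. Calls of Slc40a1, Vldlr and Cebpb were also lost with centred arrays, that of Slc40a1 with cyclic loess and those of Phex and Cebpb with the replicate block. The calls of Cnnm2 and Oas1b were lost only when the compared arrays were fitted alone, which also ended those of Adora2b, Ddit3, Ddit4, Dmrta1, Hpgd, Lhfpl6, Phex, Slc40a1 and Vldlr.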

How the results depend on the processing

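Between 6 and 16 h in the clone 12815 probe sets passed. This count stayed between 12813 and 13410 under the alternatives that kept all arrays and all probe sets. When 1 array was left out it was between 11727 and 12345, and in a fit on only the arrays compared 12116. It was 11308 over the brighter 50% of probe sets, where fewer were tested, so that count is not like the others. With the replicate block it was 12977. The deviations of arrays with the same number correlated at 0.0205, 0.0315 and 0.0509 in the clone. Those of arrays with unlike numbers correlated at -0.0497 to 0.0220. In the vector line the values for the same number were -0.0218, 0.0686 and 0.0835, and for unlike numbers -0.0884 to 0.0332. Correlations this small do not decide whether arrays of the same number were paired. The count for the difference of the changes between the lines, 83, moved more than the counts of changes within either line: it was 193 over the brighter 50% of probe sets, 212 with a trended and robust variance, 210 with array weights and 46 in a fit on only the arrays compared, and it ranged from 41 to 130 when 1 array was left out. It was 41 and 48 without the first and the second 6 h array of the clone, 49 and 45 without the second and the third 6 h array of the vector line, and 130 without the third 16 h array of the vector line. The cause was not tested. Of the named genes, Csnk1d reversed, from -0.51 to 0.18, when its probe sets were averaged. Of 207 named genes 184 passed in the clone, and 180 of these passed in the same direction in every setting that held their probe set. The others were Csnk1d, Eif2ak4, Hspa5 and Slc40a1. Among the named genes that did not pass, 9 passed in some setting. Of the 24 genes named for a difference between the lines, 10 passed in every setting that could test them. Signal at background limits what can be said of the genes given as bounds.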

Other observations

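Further gene lists were counted in the clone between 6 and 16 h. Of 25 autophagy genes 14 rose and 3 fell, beside 24.0% and 25.2% of all genes. Atg14, a subunit of the kinase complex that starts autophagosomes, rose from 5.21, 4.54 and 4.94 to 7.24, 7.37 and 6.82, and Gabarapl1, an ATG8 protein, rose 2.60-fold. Sqstm1, the cargo receptor p62, rose 2.06-fold to 12.45 by 2 of its 4 probe sets. Ulk2, an initiating kinase, fell 4.09-fold. Of 29 lysosomal genes 12 rose and 5 fell.

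The next 3 lists lay near the shares of all genes, and only single members are described. The cytokine and growth factor, NF-κB, nitric oxide, beta-cell transcription factor and receptor and channel lists above also lay near these shares. So did the rises of the Rac list, while fewer of its genes fell. Of 20 complement and acute phase genes 6 rose and 4 fell. C3, the central complement protein, rose from 7.67, 7.47 and 8.21 to 9.92, 10.16 and 10.15. Lcn2, which binds bacterial siderophores, rose 3.51-fold and Cfb, complement factor B, rose 2.31-fold. Of 25 heat shock genes 7 rose and 5 fell, but 11 and 4 with centred arrays. The inducible Hspa1a rose from 4.47, 4.66 and 4.83 to 6.22, 6.88 and 7.40. Of 34 antioxidant genes 9 rose and 10 fell, but 12 and 6 with centred arrays. Hmox1, haem oxygenase, rose 2.28-fold and Glrx, glutaredoxin, fell 2.73-fold.

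Ptgs2, the inducible cyclooxygenase, did not pass in the clone, at 3.89, 4.19 and 4.40 at 6 h and at 4.13, 4.18 and 4.21 at 16 h, and had means of 5.33 and 4.69 in the vector line.

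The letters CACGTG, the E-box bound by clock, MYC and lysosomal regulators, lay before 7.85% of genes. Of these 870 genes 32.6% rose and 23.2% fell, beside 23.8% and 25.9% of genes without the word. The endoplasmic reticulum stress response element lay before 17 genes (0.153%), among them 7 of the 21 genes of the ATF6 and XBP1 list with a sequence. These shares are descriptions of the windows searched.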
